A study of Caenorhabditis elegans with 32 samples.

Results

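Of the 19792 named genes measured on 32 arrays of whole Caenorhabditis elegans, 7 were followed here that code for enzymes that break down NAD+: the sirtuins sir-2.1, sir-2.2, sir-2.3 and sir-2.4, the poly(ADP-ribose) polymerases parp-1 and parp-2, and tir-1. They were chosen by name and not by a measured value, but with earlier results of these data known. All 22 of their probes were followed, out of the 43314 probes tested: 14 for tir-1, 2 each for sir-2.1 and sir-2.2, and 1 for each of the other genes. The enzymes that act on the products of the PARPs, the glycohydrolases parg-1 and parg-2, and the tankyrase tank-1, a further PARP, were followed beside them as related genes.

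NAD+ carries electrons in metabolism and is also a substrate that these enzymes cleave, with release of nicotinamide. Sirtuins use it to take acyl groups off proteins. PARPs build chains of ADP-ribose from it on proteins near DNA breaks, and glycohydrolases trim the chains away. TIR-1 is the worm counterpart of mammalian SARM1, whose TIR domain cleaves NAD+ during axon degeneration. In the worm it also acts above the kinases NSY-1, SEK-1 and PMK-1, a p38 MAP kinase cascade of neurons and intestine. In mammals, PARP1 activity that stays high after DNA damage lowers NAD+, and NAD+ precursors have been given to repair-deficient animals for that reason.

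There were 8 groups of 4 arrays each. They comprised the wild-type strain N2 Bristol, single mutants of csb-1 (allele ok2335) or csa-1 (allele tm4539), and worms with both alleles (the double mutant). Each strain was kept on water (vehicle) or on 500 µM nicotinamide riboside (NR), a precursor of NAD+. The csa-1 and csb-1 genes are the worm counterparts of the human Cockayne syndrome genes CSA and CSB, which act in transcription-coupled DNA repair. NR was given from the L4 larval stage and whole worms were taken on day 7 of adulthood. All strains share the N2 background and the same plates, 25 °C and, by the general methods, the sterilizing drug FUdR. Each mutant is a single allele in one strain. The labels give 4 replicates per group where the methods give 3, and they do not say that these were separate cultures, so the p-values measure only the spread between these arrays, which may be technical.

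Values are Z-scores: the log2 intensity of a probe minus the mean of its array, divided by the SD of that array. A level is given as a Z-score and a change as a log2 value, which is the difference in Z-score times the mean SD of the arrays (3.74). A probe was called changed when its adjusted p (limma, Benjamini-Hochberg over all 43314 probes) was at most 0.05, its Z-ratio (the change divided by the SD of all changes in that comparison) was 1.5 or more in size, and its mean Z-score was above 0. Levels of different probes are not compared, since probes differ in binding.

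The 75th percentile of intensity ran from 565 to 3883 over the 32 arrays, and 46.9 to 78.4% of gene spots were well above background. The lowest share belonged to N2 vehicle replicate 1. Groups differed in this: the median 75th percentile was 1525 on N2 NR and 2153 on csb-1 NR arrays. The array SD by which Z-scores are divided ran from 3.17 to 3.95 on vehicle and from 3.71 to 4.00 on NR arrays. All log2 changes use the 1 mean SD. Each group lay on a slide of its own, so a slide effect and a group effect cannot be told apart. The csb-1 probe read -1.40 to -0.552 on the csb-1 and double mutant arrays. It read -0.332 to 0.0610 on the arrays of strains with csb-1 intact, with 1 exception, the array labelled csa-1 NR replicate 4, at -1.22. The csa-1 probe of that array read 0.212, against -0.328 to -0.258 on the other csa-1 NR arrays and 0.0925 to 0.195 on csb-1 NR arrays. The array thus goes against its label. On vehicle the csa-1 probe did not separate the strains: it read -0.200, -0.114, -0.440 and -0.00176 in N2 and -0.362, -0.625, -0.0117 and -0.136 in csa-1. N2 vehicle replicate 3 thus read like csa-1 arrays, and csa-1 vehicle replicates 3 and 4 like the other N2 arrays. Since the probe did not separate the strains on vehicle, it cannot settle these labels. All arrays were kept as labelled. Counts are also given without csa-1 NR replicate 4 and without replicate 3 of N2 vehicle and of csa-1 vehicle. Whether the csa-1 and csb-1 probes lie in the deleted stretches was not checked.

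**Figure D1:**
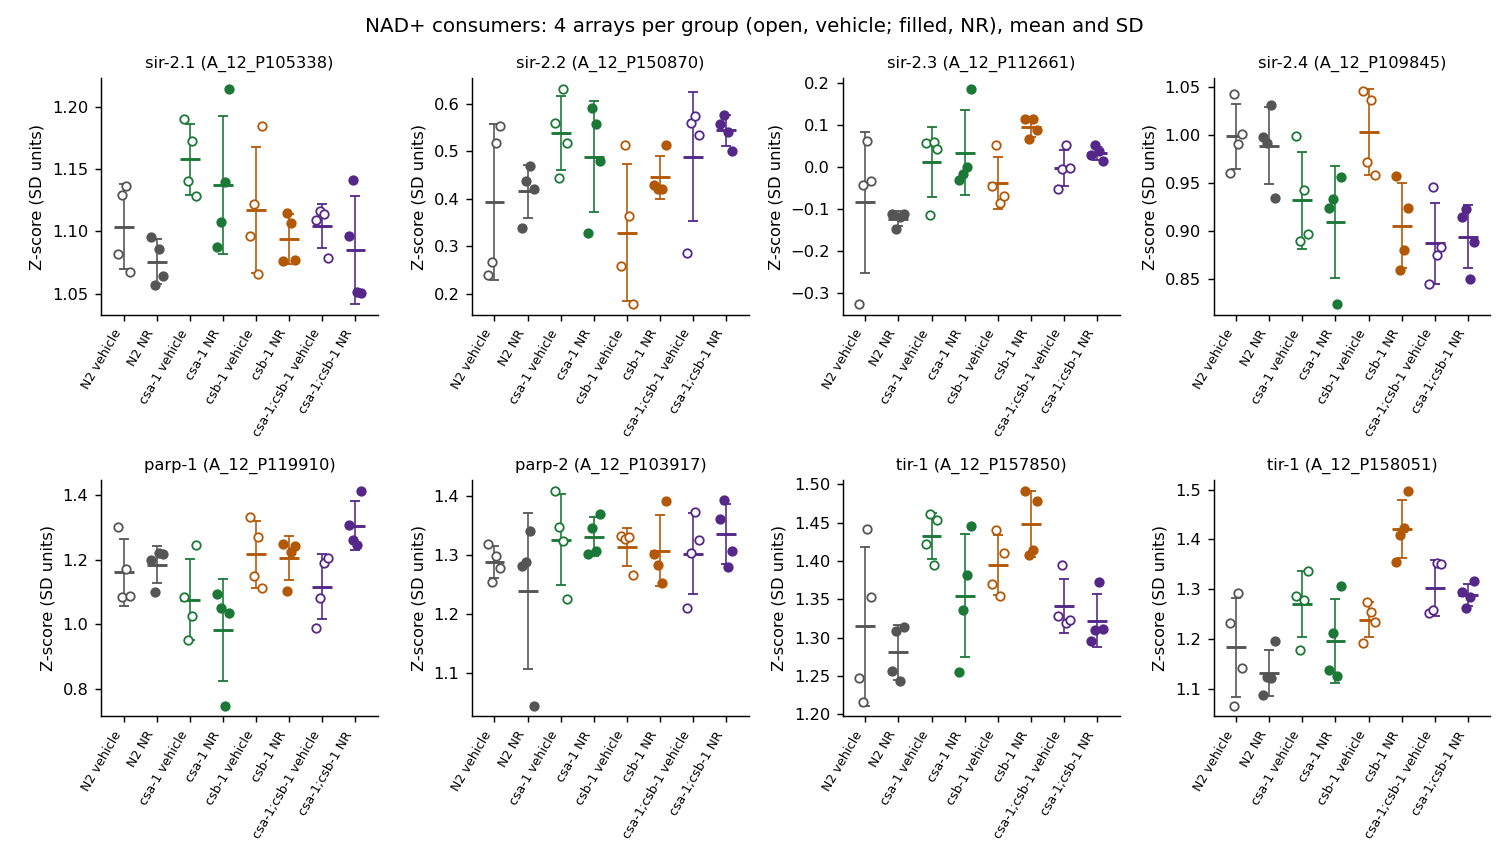
Z-score (vertical axis, SD units) of the brightest probe of each of the 7 genes on every array, by group (open, vehicle, and filled, NR), with the mean and SD of 4 arrays. The parp-2 means stay between 1.24 and 1.33 in all groups, while sir-2.3 and tir-1 lie higher on csb-1 NR arrays than on N2 NR arrays.

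SIR-2.1, the worm counterpart of mammalian SIRT1, deacetylates proteins in the nucleus and binds the transcription factor DAF-16. Its level moved little. The brighter of its probes, A_12_P105338, had group means between 1.08 on N2 NR and 1.16 on csa-1 vehicle arrays, and single arrays ran from 1.05 to 1.21. The other probe, A_12_P133651, read 0.690, 0.788, 0.967 and 0.888 on N2 vehicle arrays and 1.02, 0.929, 0.988 and 0.953 on csa-1 vehicle arrays. These groups overlap. The change of +0.52 ± 0.20 (SE) had an adjusted p of 0.105. Neither sir-2.1 probe had an adjusted p of 0.05 or less in any comparison.

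SIR-2.2 and SIR-2.3 are mitochondrial sirtuins related to mammalian SIRT4, and their genes are neighbours on the X chromosome. Since they are close in sequence and the probe sequences were not used here, binding of one gene's RNA by the other's probe was not tested. The brighter sir-2.2 probe, A_12_P150870, read 0.239, 0.267, 0.516 and 0.554 on N2 vehicle arrays and 0.338, 0.436, 0.469 and 0.420 on N2 NR arrays. In csa-1 it read 0.560, 0.445, 0.631 and 0.518 on vehicle and 0.329, 0.591, 0.557 and 0.479 on NR. The csa-1 arrays lie toward the upper end but overlap with N2 in both treatments. In the double mutant it read 0.286, 0.559, 0.575 and 0.535 on vehicle and 0.558, 0.577, 0.540 and 0.50 on NR, the latter all above the 4 N2 NR arrays. In csb-1 it read 0.259, 0.514, 0.364 and 0.179 on vehicle and 0.430, 0.420, 0.420 and 0.513 on NR. These overlap with N2, with 1 vehicle array below and 1 NR array above all N2 arrays of the same treatment. For the double mutant on NR, 12.7% of all probes lay above N2 without overlap.

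Averaged over csb-1 status and treatment (16 arrays with the csa-1 mutation against 16 without), this sir-2.2 probe was higher by 0.44 ± 0.14 (adjusted p = 0.0392) and the second one, A_12_P115238, by 0.42 ± 0.11 (adjusted p = 0.0153). Both missed the Z-ratio limit (1.42 and 1.35), so neither was called. With slide as a random block the adjusted p of A_12_P150870 was 0.0917. Without the array that goes against its label the changes were 0.45 and 0.42. Muscle markers moved in the same comparison: 4 of 6 were called higher and their median change was +0.60, where 3.02% of all probes were called. Also called higher were 1 of 8 neuronal markers (unc-104, +0.51) and 1 of 6 hypodermal markers (col-19, +0.95). At an unadjusted p under 0.05, 5 of 8 neuronal and 4 of 5 pharyngeal markers were higher. By the same limit 4 of 10 germline markers were lower, against 30.5% of all probes in either direction. The mean Z-score of the muscle markers ran from 0.745 to 0.864 on N2 vehicle, 0.814 to 1.06 on csa-1 vehicle and 0.901 to 0.993 on double mutant vehicle arrays. On NR it ran from 0.760 to 0.892 in N2, 0.50 to 0.803 in csa-1 and 0.958 to 0.974 in the double mutant, so that csa-1 alone on NR was not above N2 (0 of 6 markers higher, median change -0.39). The part of tissue makeup in the sir-2.2 change was not tested, and in whole worms fewer cells of a type and less RNA per cell cannot be told apart.

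The sir-2.3 probe was near the middle of the arrays and well above background on 31 of 32. It read -0.325, -0.0421, 0.0623 and -0.0322 on N2 vehicle arrays and -0.111, -0.148, -0.119 and -0.113 on N2 NR arrays. On NR all 4 csb-1 arrays were higher, at 0.115, 0.0663, 0.115 and 0.0876. The double mutant on NR read 0.0279, 0.0513, 0.0382 and 0.0146, also above every N2 NR array, as was csa-1 on NR at -0.0312, -0.0156, -0.000264 and 0.185. The csb-1 change on NR, +0.82 ± 0.22, had an adjusted p of 0.0310 and a Z-ratio of 1.69, but the probe's mean Z-score of -0.01 kept it from being called. The changes in csa-1 (+0.59 ± 0.22, adjusted p = 0.265, and +0.40 ± 0.22, adjusted p = 0.539, without replicate 4) and in the double mutant (+0.58 ± 0.22, adjusted p = 0.214) did not pass. The 3 comparisons share the N2 NR arrays. On NR, 4955 of 43314 probes lay above N2 without overlap in csb-1, 5513 in the double mutant and 2846 in csa-1. On vehicle, sir-2.3 changes ran from +0.18 to +0.36 and none passed.

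SIR-2.4 is related to mammalian SIRT6 and SIRT7. Its averaged changes in both mutants were below 0. Its probe read 0.961, 1.04, 0.991 and 1.0 on N2 vehicle arrays and 0.845, 0.946, 0.875 and 0.884 on double mutant vehicle arrays, with no overlap. Over all probes, 650 of 43314 lay lower without overlap in that comparison. The sir-2.4 change of -0.42 ± 0.14 had an adjusted p of 0.129, and its exact permutation p of 0.0286 is the smallest that 4 against 4 arrays can give. Averaged over the groups, the csa-1 mutation lowered sir-2.4 by a log2 change of -0.26 ± 0.07 (adjusted p = 0.0206), and by -0.27 without the array that goes against its label. Its Z-ratio of -0.82 kept it from being called, and with slide as a random block its adjusted p was 0.0668. The averaged csb-1 change was -0.13 ± 0.07 (adjusted p = 0.364). In csb-1, sir-2.4 read 1.05, 0.973, 1.04 and 0.958 on vehicle and 0.958, 0.859, 0.881 and 0.924 on NR, a change of -0.37 ± 0.14 with an adjusted p of 0.156.

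PARP-1 and PARP-2 are the worm counterparts of the mammalian DNA-damage PARPs, formerly called pme-1 and pme-2. The parp-1 probe read 1.30, 1.08, 1.17 and 1.09 on N2 vehicle arrays and 1.20, 1.1, 1.22 and 1.22 on N2 NR arrays. On csa-1 NR arrays it read 1.09, 1.05, 0.748 and 1.03, all below N2 on NR. Over all probes, 1675 of 43314 lay lower without overlap in that comparison. The parp-1 change of -0.76 ± 0.27 had an adjusted p of 0.238 and became -0.83 without replicate 4. In the double mutant parp-1 read 0.990, 1.08, 1.19 and 1.20 on vehicle and 1.31, 1.26, 1.24 and 1.41 on NR. All NR arrays were higher, by 0.71 ± 0.27, with an adjusted p of 0.165. Over all probes, 3756 of 43314 lay higher on NR without overlap there. Averaged over groups the csb-1 mutation gave +0.41 ± 0.14 for parp-1 (adjusted p = 0.0993), so no parp-1 change passed.

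The parp-2 probe varied little between groups. Its means were 1.29 on N2 vehicle and 1.24 on N2 NR arrays, 1.33 and 1.33 in csa-1, 1.31 and 1.31 in csb-1, and 1.30 and 1.33 in the double mutant. Single arrays ran from 1.04, on N2 NR, to 1.41, on csa-1 vehicle. No parp-2 change had an unadjusted p under 0.05.

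The clearest change among the 7 genes was that of tir-1, which was higher in csb-1 than in N2 on NR. Probe A_12_P158051 had the lowest adjusted p of the 14 tir-1 probes in this comparison, though not the largest change. On it the N2 NR arrays read 1.09, 1.12, 1.12 and 1.20 and the csb-1 NR arrays 1.36, 1.41, 1.42 and 1.5. Every csb-1 NR array was higher than every N2 NR array. The change was +1.08 ± 0.18 with an adjusted p of 0.000912. On vehicle the same probe read 1.23, 1.07, 1.29 and 1.14 in N2 and 1.19, 1.27, 1.25 and 1.23 in csb-1, which overlap.

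Over the 14 tir-1 probes, all 14 were higher on csb-1 NR than on N2 NR arrays without overlap, by 0.60 to 1.12 (median 0.97), while the median of all probes was -0.04. Of these, 13 had an adjusted p of at most 0.05 and 11 were called. They were the only members called in that comparison, 11 of 22, where 2.42% of all probes were called, 1.66% were called higher and 11.4% lay higher without overlap. By unadjusted p under 0.05, 15.4% of all probes passed. The 14 probes read one gene's RNA on the same arrays and are not independent. The brightest, A_12_P157850, read 1.26, 1.31, 1.24 and 1.31 on N2 NR and 1.49, 1.41, 1.41 and 1.48 on csb-1 NR arrays, and its change of +0.62 ± 0.17 had an adjusted p of 0.0287 but a Z-ratio of 1.29, so it was not called.

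**Figure D2:**
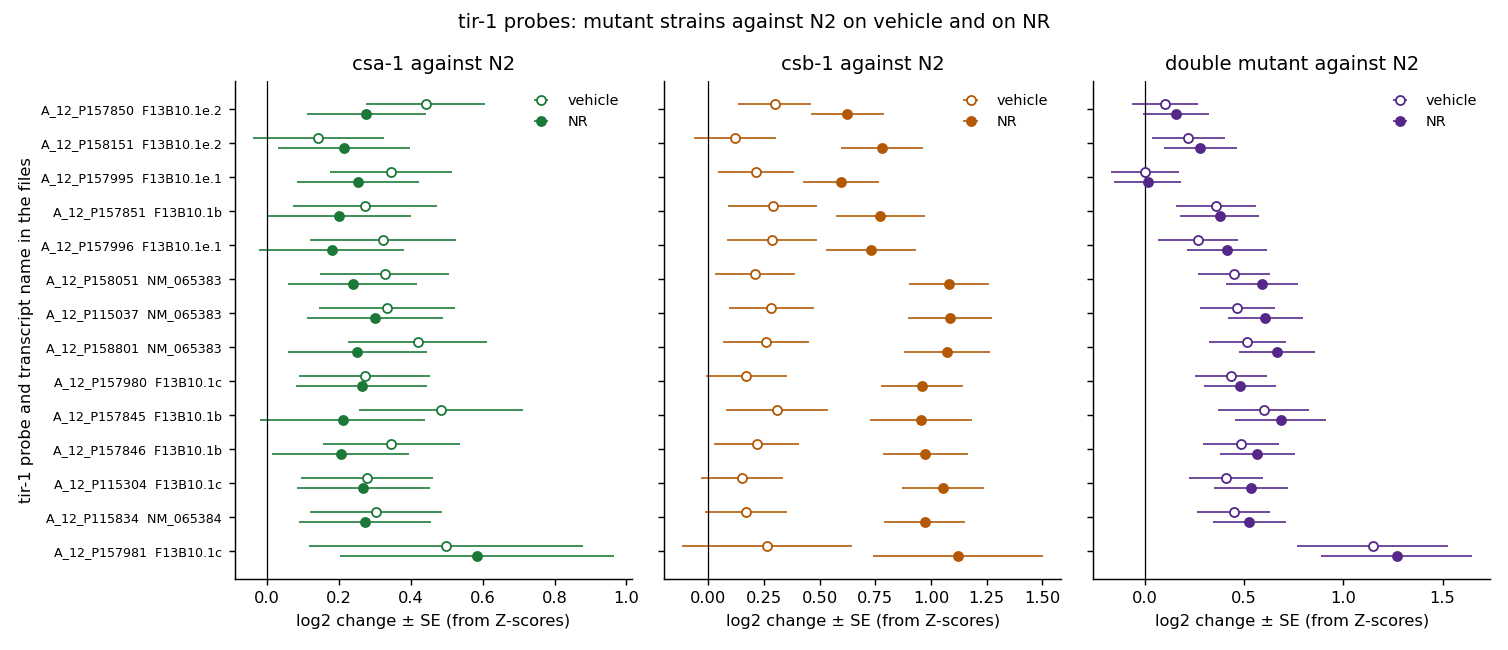
Log2 change ± SE from N2 (horizontal axis, from Z-scores) of each of the 14 tir-1 probes in the 3 mutant strains, on vehicle (open) and on NR (filled). All 14 probes lie between +0.60 and +1.12 in csb-1 on NR.

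Cell-type markers also differed between these groups. The mean Z-score of the muscle markers was 0.577 to 0.703 on csb-1 NR against 0.760 to 0.892 on N2 NR arrays, and 2 of 6 muscle markers, myo-3 and mup-2, were called lower, as was 1 of 6 hypodermal markers, col-19. That of the neuronal markers was 0.667 to 0.706 against 0.587 to 0.694, with 0 of 8 neuronal markers called and 1 at an unadjusted p under 0.05. Germline markers, at 1.53 to 1.61 against 1.63 to 1.69, and intestinal markers, at 1.36 to 1.39 against 1.42 to 1.47, were also lower. Hypodermal markers read 0.604 to 0.6626 against 0.6633 to 0.744, while sperm and pharyngeal markers overlapped. At an unadjusted p under 0.05, 3 of 6 intestinal and 2 of 10 germline markers were lower, against 15.4% of all probes. Of the markers 5 of 6 for muscle and 7 of 8 for neurons were well above background on every array. The part of all these markers in the tir-1 change was not tested.

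The mean Z-score over the 13 tir-1 probes that were well above background on all arrays puts the groups in order. N2 on NR was lowest (1.13 ± 0.0359, SD, n = 4), followed by N2 on vehicle (1.18 ± 0.0959), csa-1 on NR (1.20 ± 0.0853), csb-1 on vehicle (1.24 ± 0.0327), the double mutant on NR (1.25 ± 0.0209), csa-1 on vehicle (1.27 ± 0.0432), the double mutant on vehicle (1.28 ± 0.0427) and csb-1 on NR (1.37 ± 0.0436). Neighbours in this order overlap except at the top. The lowest csb-1 NR array, at 1.34, lay above the highest of the other 28 arrays, at 1.33. On csa-1 NR arrays the highest value, 1.31, was that of replicate 4, the array that goes against its label.

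**Figure D3:**
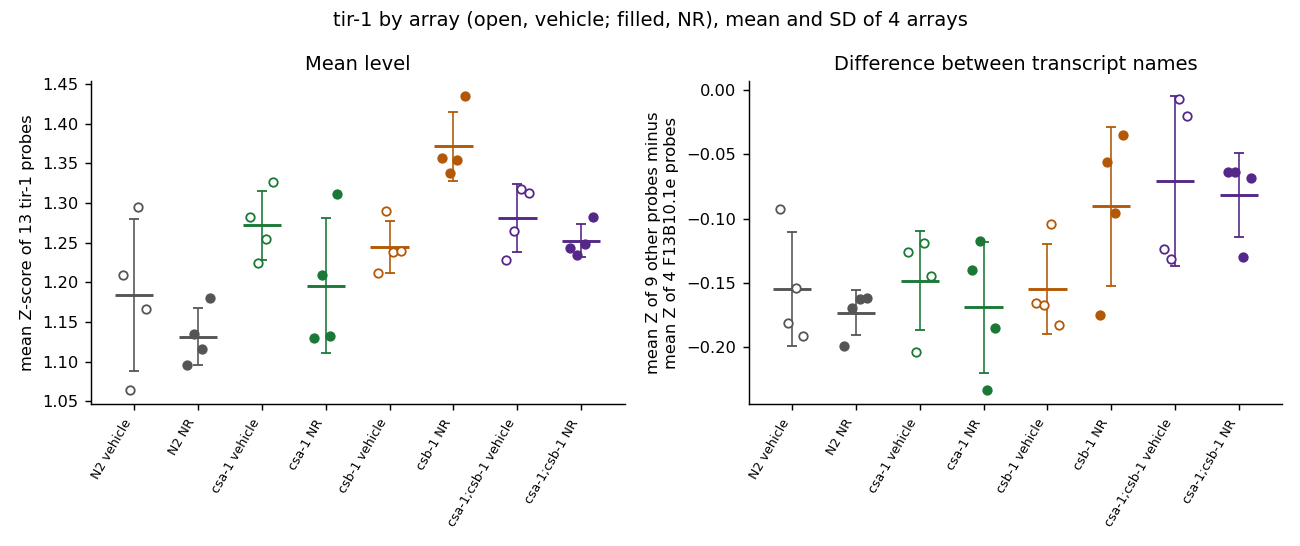
Left, mean Z-score of 13 tir-1 probes on each array. Right, mean Z-score of the 9 probes with other transcript names minus that of the 4 named F13B10.1e. Lines and bars give the mean and SD of 4 arrays, and the 4 csb-1 NR arrays lie above all others on the left.

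The median NR change of tir-1 was above 0 in csb-1 and below 0 in the other strains, but the differences did not pass. In csb-1 the median of the 14 probes was +0.52 on NR against vehicle, 9 of 14 had an unadjusted p under 0.05 and 1, A_12_P158051, had an adjusted p of 0.0298 (+0.68 ± 0.18, Z-ratio 1.29, not called). The medians were -0.20 in N2, -0.29 in csa-1 and -0.11 in the double mutant, each with 0 of 14 at such an unadjusted p. The NR effect in csb-1 minus that in N2 ran from +0.33 to +0.91 over the probes (median 0.77), with 8 of 14 at an unadjusted p under 0.05 and a lowest adjusted p of 0.426. These effects share the N2 arrays. Cell-type markers moved with NR as well. In csb-1, 4 of 8 sperm markers were called higher (median +1.39) and 2 of 6 hypodermal markers lower, where 1.26% of all probes were called. In the double mutant 4 of 8 sperm markers were called higher (median +1.19), against 2.05% of all probes. In csa-1, 2 of 6 muscle markers were called lower (median -0.73), against 2.12%. The part of these markers in the tir-1 changes was not tested.

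The tir-1 probes carry several transcript names. The 4 probes named F13B10.1e changed by 0.60 to 0.78 in csb-1 on NR, and 2 were called. The 9 others that were bright on all arrays changed by 0.77 to 1.09, and 9 were called (adjusted p from 0.000912 to 0.0257). In the double mutant the 4 F13B10.1e probes had median changes of +0.16 on vehicle and +0.22 on NR, and the 9 others +0.45 and +0.57. On NR these 9 lay above N2 without overlap, as 12.7% of all probes did. On each array the mean of the 9 was below that of the 4, by an average of 0.155 on N2 vehicle and 0.173 on N2 NR, and by 0.0705 and 0.0814 in the double mutant. In csb-1 it was 0.155 on vehicle and 0.0904 on NR. This split was made after the values had been seen and was not tested. The fourteenth probe, A_12_P157981, was dim (mean Z-score -0.423) and well above background on 29 of 32 arrays.

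In the double mutant on NR, 11 of 14 tir-1 probes lay above N2 on NR without overlap, where 12.7% of all probes did. The median change of the 14 was +0.53, and 0 of the 22 probes were called, where 1.17% of all probes were called. At an unadjusted p under 0.05 there were 11 higher and 1 lower of 22, against 13.5% of all probes. In csa-1 on NR the tir-1 median was +0.25 and 0 of 22 probes were called, where 0.259% of all probes were. At an unadjusted p under 0.05 there were 1 higher (sir-2.3) and 2 lower (sir-2.4 and parp-1), against 12.1% of all probes. Without replicate 4 of csa-1 NR the count called was again 0, while 2 members had an unadjusted p under 0.05 (10.6% of all probes), and sir-2.3 was no longer among them. The change of A_12_P158051 moved from +0.24 to +0.10.

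On vehicle, 0 of 22 probes were called in any mutant. The share of all probes called was 0.656% in csa-1, 0.446% in csb-1 and 0.584% in the double mutant. At an unadjusted p under 0.05 there were 5 of 22 higher in csa-1 (27.0% of all probes passed in either direction), 0 in csb-1 (9.39%), and 9 higher, all tir-1, and sir-2.4 lower in the double mutant (18.7%). The medians of the 14 tir-1 probes were +0.33, +0.24 and +0.44. Without N2 vehicle replicate 3 the calls stayed at 0, but 5 member probes in csa-1 and 7 in the double mutant had an adjusted p of at most 0.05, as 23.9% and 11.7% of all probes then did. Without csa-1 vehicle replicate 3 the calls were 0 as well, and 0 of all probes were called in csa-1.

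NR against vehicle also gave 0 of 22 calls in every genotype. The share of all probes called was 0.658% in N2, 2.12% in csa-1, 1.26% in csb-1 and 2.05% in the double mutant. At an unadjusted p under 0.05 there were 0 of 22 in N2 (11.8% of all probes), 0 in csa-1 (19.9%), 11 higher and 1 lower in csb-1 (18.5%), and 1 higher, parp-1, in the double mutant (16%). Without the array that goes against its label, 10 member probes in csa-1 had an unadjusted p under 0.05, as 15.7% of all probes then did, and 0 were called (lowest adjusted p 0.196).

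**Figure D4:**
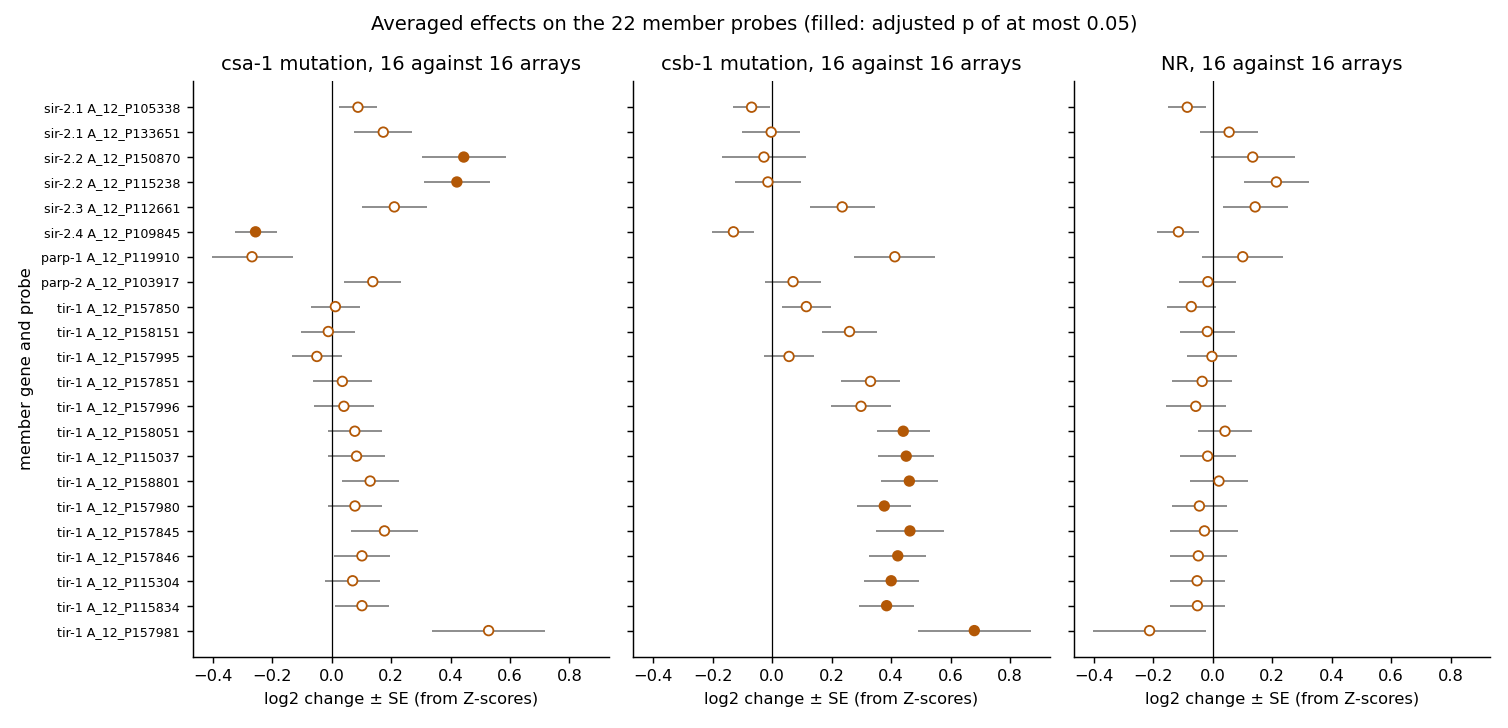
Log2 change ± SE (horizontal axis, from Z-scores) of the 22 member probes for the csa-1 mutation, the csb-1 mutation and NR, each 16 against 16 arrays. Filled points have an adjusted p of at most 0.05: sir-2.2 and sir-2.4 in csa-1, tir-1 probes in csb-1, and no probe for NR.

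Averaged over the other factors, the csb-1 mutation raised 6 of the 22 probes, all tir-1, by 0.40 to 0.46, and 9 tir-1 probes had an adjusted p of at most 0.05. For the csb-1 mutation 1.79% of all probes were called, 0.563% were called higher and 16.4% had an unadjusted p under 0.05. The count was 7 without the array that goes against its label and 5 without csa-1 vehicle replicate 3. With slide as a random block it was 2, with an adjusted p of 0.0506 for A_12_P158051, and with 1 value per gene (the brightest probe or the mean of the probes) it was 0. In the same comparison 2 of 6 intestinal markers, ges-1 (-0.60) and vit-6 (-0.53), and 1 of 8 neuronal markers, snb-1 (-0.46), were called lower, and their part in the tir-1 change was not tested. The csa-1 mutation gave 0 calls, with the 3 sirtuin probes above at an adjusted p of at most 0.05. There 3.02% of all probes were called, 12.0% had an adjusted p of at most 0.05 and 30.5% an unadjusted p under 0.05, which 4 of the 22 had. NR gave 0 calls and 0 unadjusted p under 0.05, where 2.56% of all probes were called and 26.1% had such a p.

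Tests of whether the effects differ between groups called 0 of 22 probes. For csa-1 by csb-1 on vehicle, 0.0115% of all probes passed and 10.9% had an unadjusted p under 0.05, as did 2 tir-1 probes. For the NR effect against that in N2, 0.0416% passed in csa-1 (8.84% by unadjusted p, 0 members), 0.0646% in csb-1 (6.42%, 9 members) and 0.136% in the double mutant (6.28%, 0 members). The 9 members were 8 tir-1 probes and sir-2.3, whose NR effect was +0.64 larger in csb-1 than in N2. Without N2 vehicle replicate 3, tir-1 probe A_12_P157850 passed for csa-1 by csb-1 (-0.80 ± 0.22, adjusted p = 0.0346). With all arrays it was -0.64 ± 0.23 (adjusted p = 0.275). Leaving that array out also moved the count over all probes from 5 to 1710.

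Among the related genes, tank-1 was higher in strains with the csb-1 mutation. Tankyrases are PARPs that mark proteins through ankyrin repeats in mammals, and this gene was formerly pme-5. Its brightest probe, A_12_P134350, read 1.36, 1.30, 1.37 and 1.36 on N2 vehicle arrays and 1.43, 1.39, 1.40 and 1.5 on N2 NR arrays. In csb-1 it read 1.56, 1.70, 1.51 and 1.66 on vehicle and 1.75, 1.73, 1.74 and 1.80 on NR. In the double mutant it read 1.66, 1.61, 1.68 and 1.68 on vehicle and 1.84, 1.85, 1.83 and 1.82 on NR. All these arrays lay above the N2 arrays of the same treatment. On vehicle 383 of 43314 probes did so in csb-1 and 1186 in the double mutant. On NR the numbers were 4955 and 5513.

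The averaged csb-1 effect on tank-1 was +1.02 ± 0.12 (adjusted p = 5.66e-06), and 3 of 3 probes were called. The change was called on NR in csb-1 (+1.21, adjusted p = 0.00481) and on both treatments in the double mutant (+1.16 on vehicle, adjusted p = 0.0146, and +1.51 on NR, adjusted p = 0.000634). In csb-1 on vehicle it was +0.97 with an adjusted p of 0.0624. In csa-1 it read 1.39, 1.32, 1.57 and 1.68 on vehicle, where replicates 3 and 4 lay above all N2 arrays. The csb-1 probe of those 2 arrays read -0.0839 and 0.00650, in the range of strains with csb-1 intact. On csa-1 NR arrays tank-1 read 1.38, 1.45, 1.43 and 1.74, where the highest value is that of replicate 4, the array that goes against its label.

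The glycohydrolase gene parg-2 was called higher with the csa-1 mutation (+0.62 ± 0.11 averaged, adjusted p = 0.000921). With NR its averaged change was -0.46 ± 0.11 (adjusted p = 0.00374), short of the Z-ratio limit at -1.32. No change of parg-1 passed.

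**Figure D5:**
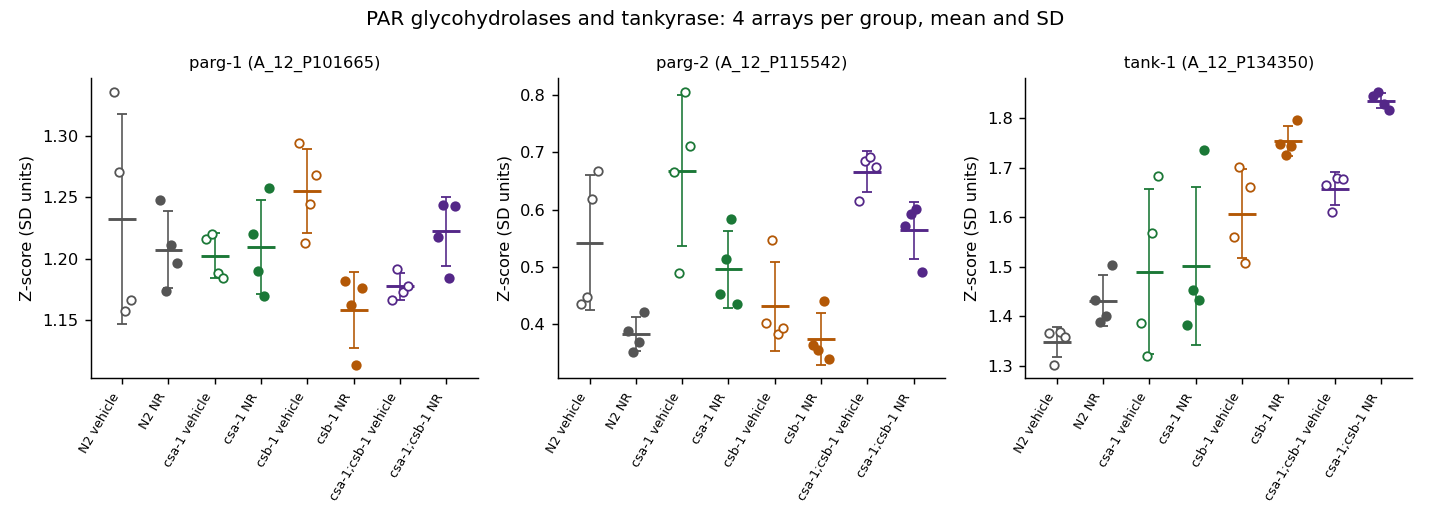
Z-score (vertical axis, SD units) of parg-1, parg-2 and tank-1 on every array by group, with the mean and SD of 4 arrays. The tank-1 values of csb-1 and double mutant arrays lie above those of N2 in both treatments.

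Of 16 listed genes of NAD+ synthesis and salvage, 15 were measured. The csa-1 mutation raised 2 of 15 on average (3.02% of all probes were called), haao-1 (+0.83, adjusted p = 0.000937) and afmd-1 (+0.51, adjusted p = 0.0120), enzymes of the kynurenine route from tryptophan. The csb-1 mutation changed 1 of 15 (1.79% of all probes were called), nprt-1, which was higher (+0.77, adjusted p = 0.0150). It codes for the enzyme that takes up nicotinic acid into NAD+ synthesis. With NR 1 of 15, kynu-1, the kynureninase gene, was called lower in N2 (-0.83, adjusted p = 0.0176) and on average (-0.56, adjusted p = 6.86e-05). Of all probes 0.658% and 2.56% were called there. In the double mutant 1 of 15, kmo-1, of the same route, rose with NR (+0.99, adjusted p = 0.00287), where 2.05% of all probes were called. The list's medians for the averaged csa-1, csb-1 and NR effects were -0.01, +0.03 and +0.07, beside -0.01, +0.01 and 0.00 over all probes.

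Of 8 listed genes of the TIR-1 and p38 route, 0 were called in any comparison, where 0.0115 to 3.02% of all probes were called. In csb-1 on NR their median change was +0.46 and 6 of 8 had an unadjusted p under 0.05, all higher, against 15.4% of all probes. The list was also high in csa-1 on vehicle (median +0.44, 5 of 8 at such a p, all higher, against 27.0% of all probes) and low with NR in csa-1 (median -0.43, 5 of 8 at such a p, all lower, against 19.9%). Of 8 partners and targets of SIR-2.1, 0 were called in csb-1 on NR, where 2.42% of all probes were called. There 1 of 8 was higher at an unadjusted p under 0.05, and the median was +0.22. Of the 5 measured biotin-dependent carboxylases, which mitochondrial sirtuins bind in worms and mammals, 0 were called in csb-1 on NR. At such a p 2 were higher and 1 was lower, against 15.4% of all probes.

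As a description over the 32 arrays, the genes whose Z-scores followed each member most closely (Pearson's r, 10833 candidate genes at most) were sought. For tir-1 they were F28H1.1 (r = 0.910), C07D10.5 (0.906) and W04A8.4 (0.903). For sir-2.1 they were F53B2.7 (0.912), fbxc-54 (0.764) and hmgs-1 (0.733). For sir-2.2 they were E01G6.2 (0.952), hir-1 (0.949) and nhr-131 (0.943), and for its neighbour sir-2.3 C34F6.9 (0.896), egl-26 (0.877) and bus-18 (0.874). For sir-2.4 they were F56D1.1 (0.771), tgt-1 (0.766) and C27D8.4 (0.764). For parp-1 they were AC8.1 (0.949), age-1 (0.941) and cdc-37 (0.940), and for parp-2 ubc-9 (0.882), F27D4.4 (0.785) and F07E5.5 (0.782). These correlations share arrays, slides and depth, and no test was made of them.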

How the data were processed

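Cy3-labelled cRNA from 200 ng of total RNA was hybridized by the authors to 1-colour Agilent arrays, and the deposited intensity is the processed signal from Feature Extraction 11.5.1.1 (background-subtracted, linear, not normalized between arrays). A deposited table of scores by the authors equals the Z-scores of log signal over all spots to within 0.00503. The table holds 0 columns of other samples. Here log2 intensities were converted to Z-scores per array over 43803 gene spots, without 1417 control spots. Of 43603 probes, 50 with several spots were averaged and 289 with a spot marked as an outlier were left out, which leaves 43314. There were 0 saturated gene spots. Of 28476 names, 22730 matched the RefSeq gene table of assembly WBcel235. Since the array design rests on another assembly, no coordinates or sequences are given.

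A group-means model over 32 arrays was fitted with limma 3.58.1 (lmFit, eBayes) in R 4.3.3, with Benjamini-Hochberg adjustment. Calls followed the methods: adjusted p of at most 0.05, Z-ratio of 1.5 or more in size, mean Z-score above 0. Tests of differences between effects used the adjusted p alone. Exact permutation tests of 4 against 4 arrays were two-sided. The fit was checked on simulated data. The precision is limited by the number of arrays. The named genes are the 7 members and the listed related genes, with each gene shown by its brightest probe. For tir-1, probe A_12_P158051 was added. In csb-1 on NR it had the lowest adjusted p of the 14 tir-1 probes but not the largest change. The members and lists were chosen with earlier results of these data known. Alternatives were other scalings, filters, summaries per gene, blocks and leaving out each array.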

Additional observations from a re-analysis of the deposited data

Results flagged for a closer look

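Among the 4 arrays of a group, single values stood far from the other 3 in 8 of 88 group and probe combinations, where chance gives about 1 in 20. For sir-2.2 (A_12_P150870), csb-1 NR replicate 4 read 0.513 against 0.420 to 0.430, and double mutant vehicle replicate 1 read 0.286 against 0.535 to 0.575. For sir-2.3, csa-1 vehicle replicate 2 read -0.113 against 0.0417 to 0.0599, and csa-1 NR replicate 4, the array that goes against its label, read 0.185 against -0.0312 to -0.000264. For parp-2, csb-1 vehicle replicate 4 read 1.26 against 1.33 on each of the others. For tir-1 (A_12_P157850), double mutant vehicle replicate 2 read 1.39 against 1.32 to 1.33. For parg-2, csb-1 vehicle replicate 2 read 0.548 against 0.384 to 0.403. For tank-1, N2 vehicle replicate 2 read 1.30 against 1.36 to 1.37. The causes were not tested.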

How the results depend on the processing

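None of the 10 single changes recomputed for tir-1, sir-2.2, sir-2.3, sir-2.4, tank-1 and parg-2 turned direction under the alternatives run. Of the 22 member probes, 0 were called on vehicle, and 3 with normexp and quantile normalization. For NR against vehicle 0 were called, 1 with quantile normalization, 9 with normexp and quantile normalization, and 1 by adjusted p alone. Between strains on NR 11 were called, and 21 with normexp and quantile normalization. With 7 features, 1 per gene, 0 were called there with the brightest probe and 1 with the mean of the probes. For the averaged effects 6 were called, 12 with normexp and quantile normalization and 12 by adjusted p alone, 0 with the brightest probe or the mean of the probes, and 2 with slide as a random block. For differences between effects 0 were called under all alternatives but the leaving out of arrays. With csa-1 NR replicate 4, N2 vehicle replicate 3 and csa-1 vehicle replicate 3 left out together, a choice made after seeing the data, the counts were 0 on vehicle, 0 for NR, 11 on NR, 7 for the averages and 1 for the differences. With 1 array left out, the counts ran from 0 to 0 on vehicle, 0 to 0 for NR, 8 to 11 on NR, 4 to 9 for the averages (4 without N2 vehicle replicate 2) and 0 to 1 for the differences. With the replicate number as a block the counts were 0, 0, 11, 6 and 0. Deviations of same-numbered arrays of different groups had a mean correlation of 0.00877 over 112 pairs (-0.522 to 0.403, 34 above 0.1). For differently numbered arrays it was -0.00178 over 336 pairs (-0.487 to 0.572, 94 above 0.1).

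Over all probes, csb-1 against N2 on NR gave 1049 calls, and 419 with scaling to the 75th percentile, 1974 with quantile normalization, 2767 with normexp and quantile normalization and 1645 with only those groups fitted. With the 75th percentile the median of all probes moved to -0.14 there, and all 14 tir-1 probes were again higher. With slide as a random block the averaged csa-1 effect gave 727 calls in place of 1309 and the csb-1 effect 484 in place of 774. The adjusted p of tir-1 A_12_P158051 in the averaged csb-1 effect was then 0.0506. The sir-2.2 change with csa-1 lost its adjusted p of at most 0.05 in 18 of 32 fits with 1 array left out (up to 0.0719). The sir-2.3 change in csb-1 on NR lost it in 8 of 32 (up to 0.0863), and that of tir-1 A_12_P157850 in 6 of 32 (up to 0.0937). The change of tir-1 A_12_P158051 with NR in csb-1 lost it in 6 of 32 (up to 0.125). It also did so in 3 of 11 other alternatives, which include 1 value per gene (up to 0.463). In csb-1 against N2 on NR, A_12_P158051 kept it in 32 of 32 (up to 0.00685). With slide as a random block the sir-2.4 change with csa-1 had an adjusted p of 0.0668.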
